A study of Mus musculus with 4 samples.

Results

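The 9 genes described here encode receptors, Jagged ligands and transcriptional targets of the NOTCH pathway. They are Notch1, Notch2 and Notch3, Jag1 and Jag2, and the repressors Hes1, Hey1, Hey2 and Heyl. They were taken by symbol from tables that list 24831 mouse genes, all 9 were found, and all 9 had enough reads to be among the 13602 genes tested. NOTCH proteins are surface receptors that are cut when a neighbouring cell presents a Delta-like or Jagged ligand. The released intracellular part enters the nucleus, binds the DNA-binding protein RBPJ and switches on targets such as the HES and HEY repressors. In the embryo the pathway is known for timing the segmentation of somites, for keeping neural progenitors undifferentiated, and for forming arteries and heart valves.

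RNA sequencing was done on somitic gastruloids, aggregates of mouse embryonic stem cells that lengthen in culture and form presomitic tissue and somites. Both groups came from E14 stem cells with a triple reporter, in which the endogenous Zeb2 gene carried an HA tag joined to an FKBP12 F36V degron. ZEB2 is a zinc finger repressor of epithelial genes. Wells of both were seeded with 300 cells, which received the WNT pathway activator CHIR99021 (3 μM) after 48 h. At 96 h the gastruloids went into 10% Matrigel. The dTAG-13 group received 100 nM of dTAG-13, a molecule that leads the tagged protein to degradation, at 72 h and 96 h. The other group is labelled untreated, and the growth protocol gives DMSO for control gastruloids. There were 2 libraries per group, numbered 1 and 2. No label says whether the numbers stand for separate cultures or whether gastruloids were pooled, so p-values reflect a spread between libraries that may be technical. The labels do not say whether the tagged line is a single clone.

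Reads counted in genes numbered 12230908 and 11491330 in the dTAG-13 libraries, against 12716172 and 11566746 in the untreated ones. Levels are given as CPM, read counts scaled to a common sequencing depth. Somite markers were present in all libraries, with Tcf15 at 3.84 and 4.16 CPM with dTAG-13, against 9.64 and 9.96 CPM untreated. Markers of several other tissues were present too, so the RNA came from a mixture of cell types. In such bulk samples fewer cells of a type and less RNA per cell cannot be told apart.

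No member passed an adjusted p of 0.05 in either direction in edgeR's quasi-likelihood test, and the adjusted p of all 9 was 1.00. Over all 13602 genes the share called was 0% higher and 0% lower. At an unadjusted p under 0.05 there were 0 members, against 2.29% of all tested genes higher and 1.23% lower. DESeq2 called 0 of the 9 at an adjusted p of 0.05, where it called 0.196% of 13258 genes higher and 0.0981% lower. The median log2 fold change of the 9 was 0.08, beside 0.00 over all tested genes. Jag1, Hey1, Hey2 and Heyl were each lower in replicate 2 than in replicate 1 of both groups, and for the 3 HEY genes this difference was larger than any between dTAG-13 and untreated within a number.

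**Figure D1:**
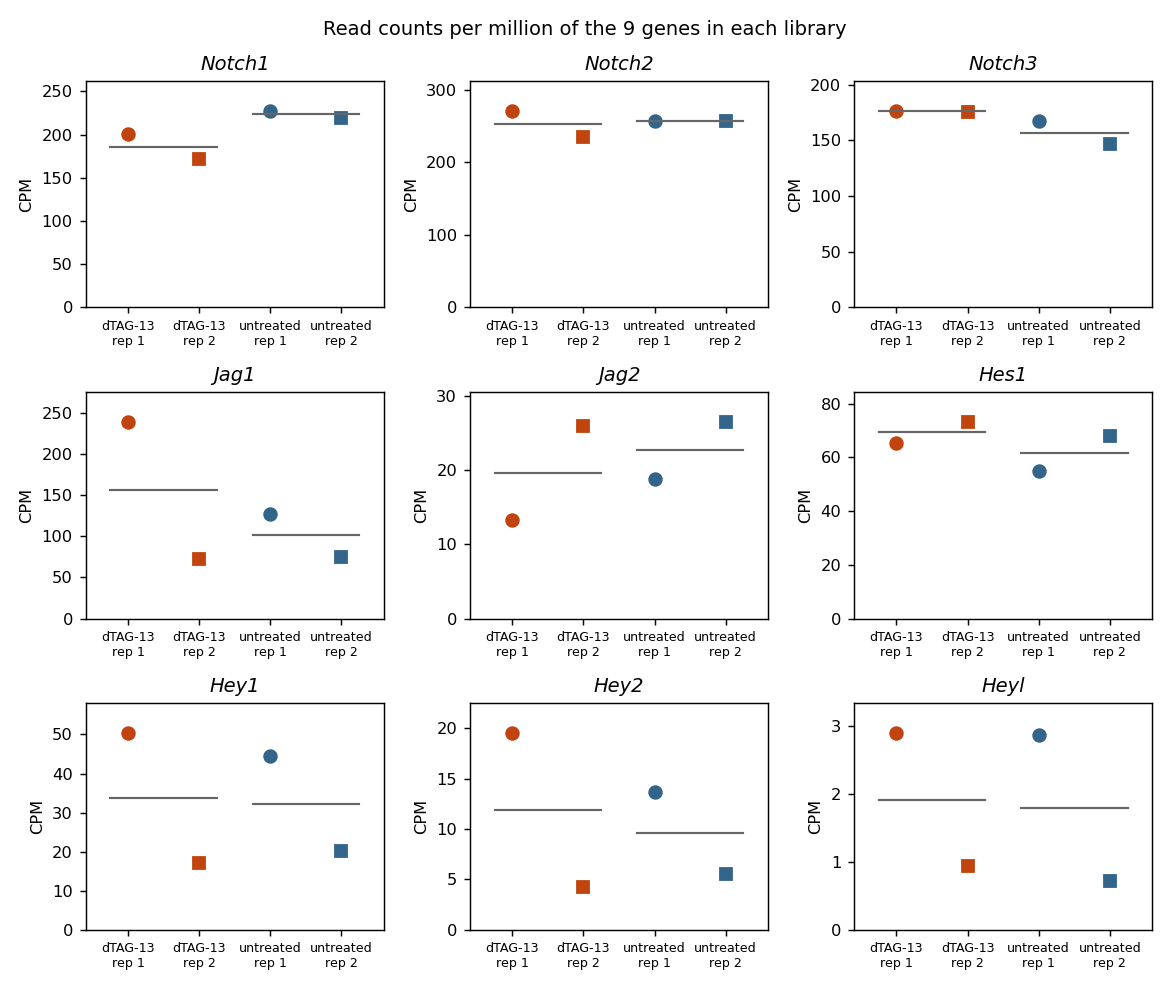
CPM (vertical axes, each starting at 0) of the 9 genes in the 2 dTAG-13 libraries (red) and the 2 untreated libraries (blue), with circles for replicate 1, squares for replicate 2 and a line at each group mean. The receptors and Hes1 differ little between libraries, while Jag1, Hey1, Hey2 and Heyl are lower in replicate 2 of both groups.

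The receptors were the steadiest members. Notch1, the receptor known for its role in somite segmentation and arteries (chromosome 2, 26457903 to 26516663 in GRCm38), had 201 and 171 CPM in the dTAG-13 libraries, against 228 and 219.6 CPM in the untreated libraries. Both dTAG-13 values lay below both untreated values. Its means were 186 ± 20.9 CPM with dTAG-13 and 224 ± 5.75 CPM untreated (SD, n = 2 each). The log2 fold change was -0.27 ± 0.14 (SE), which did not pass (edgeR adjusted p = 1.00). Notch1 was the single member lying wholly below untreated, where 11.9% of all tested genes do so. The difference within a replicate number was -0.18 for number 1 (95% interval -0.26 to -0.10) and -0.36 for number 2 (-0.44 to -0.27). These intervals come from an exact binomial calculation on the paired counts and hold for counting error alone, without the spread between libraries. PCR copies were not told apart by molecular identifiers, so the intervals can be too narrow even for counting error.

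Notch2 (chromosome 3, 98013527 to 98150361), a receptor with broad expression, had 271 and 235 CPM with dTAG-13, against 257 CPM in each untreated library. The untreated values lay between those with dTAG-13. Its log2 fold change was -0.02 ± 0.14.

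Notch3 (chromosome 17, 32120820 to 32166852), known above all from the smooth muscle of arteries, had 177 and 175 CPM with dTAG-13, against 167 and 147 CPM untreated. Both dTAG-13 values lay above both untreated values. It was the single member to do so, where 14.4% of all tested genes do. The log2 fold change was 0.16 ± 0.14 and did not pass. With plain read totals in place of TMM, a trimmed-mean scaling between libraries, its difference within number 1 changed sign, 0.08 with TMM and -0.04 without, while that within number 2 was 0.25 and 0.33. That change of scale moved all genes of number 1 by -0.12 and all of number 2 by 0.08 on the log2 scale. In the GENCODE M21 annotation, antisense transcripts overlap exons of Notch1 over 1068 and 414 bases and of Notch3 over 488 bases, and another transcript shares 541 exon bases with Notch2 on its own strand. Whether reads were counted by strand is not given in the sources used, so reads from such partners cannot be told apart from those of the receptors.

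Divided by the length of all annotated exons of a gene, the receptors can be roughly compared with each other. That length was 14232 bases for Notch1, 10782 for Notch2 and 8089 for Notch3. It counts every annotated exon, whether used in these cells or not, so the shares are approximate. Of the summed receptor level per length, Notch1 made up 23.1% and 21.7% with dTAG-13, against 26.5% and 26.9% untreated. Notch2 had 41.2% and 39.3% with dTAG-13, against 39.4% and 41.5% untreated. Notch3 had 35.7% and 39.0% with dTAG-13, against 34.1% and 31.6% untreated. The share of Notch1 was thus lower, and that of Notch3 higher, in both dTAG-13 libraries than in either untreated one, while the share of Notch2 overlapped between the groups.

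The Jagged ligands varied far more between libraries than the receptors. Jag1 (chromosome 2, 137081456 to 137116644) encodes a membrane ligand known from arteries, the inner ear and somite borders. It had 239 and 72.8 CPM with dTAG-13, against 127 and 74.5 CPM untreated. One library, dTAG-13 replicate 1, stood above the other 3, and the value of dTAG-13 replicate 2 was below both untreated ones. The means were 156 ± 118 CPM with dTAG-13 and 101 ± 37.4 CPM untreated (SD, n = 2 each). The log2 fold change by edgeR was 0.63 ± 0.71, which did not pass. Within number 1 the dTAG-13 library was 1.88-fold above the untreated library, a log2 difference of 0.91 (95% counting interval 0.82 to 1.00). Within number 2 the ratio was 0.977, a log2 difference of -0.03 (-0.17 to 0.11). Without dTAG-13 replicate 1 the fitted log2 fold change of Jag1 was -0.47, and without dTAG-13 replicate 2 it was 1.22. A difference of the treatment effect between the numbers could not be tested, since such a model leaves no residual degrees of freedom.

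Jag2 (chromosome 12, 112907819 to 112929776), a second membrane ligand of the same family, had 13.3 and 25.9 CPM with dTAG-13, against 18.8 and 26.5 CPM untreated. Here replicate 2 was the higher library in both groups, opposite to Jag1. The log2 fold change was -0.21 ± 0.36, with -0.50 within number 1 and -0.03 within number 2. Per length, Jag1 made up 95.5% and 77.1% of the summed Jagged level with dTAG-13, against 89.0% and 77.0% untreated. Jag1 was therefore the more abundant Jagged transcript in all 4 libraries, by a margin that differed with the replicate number.

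**Figure D2:**
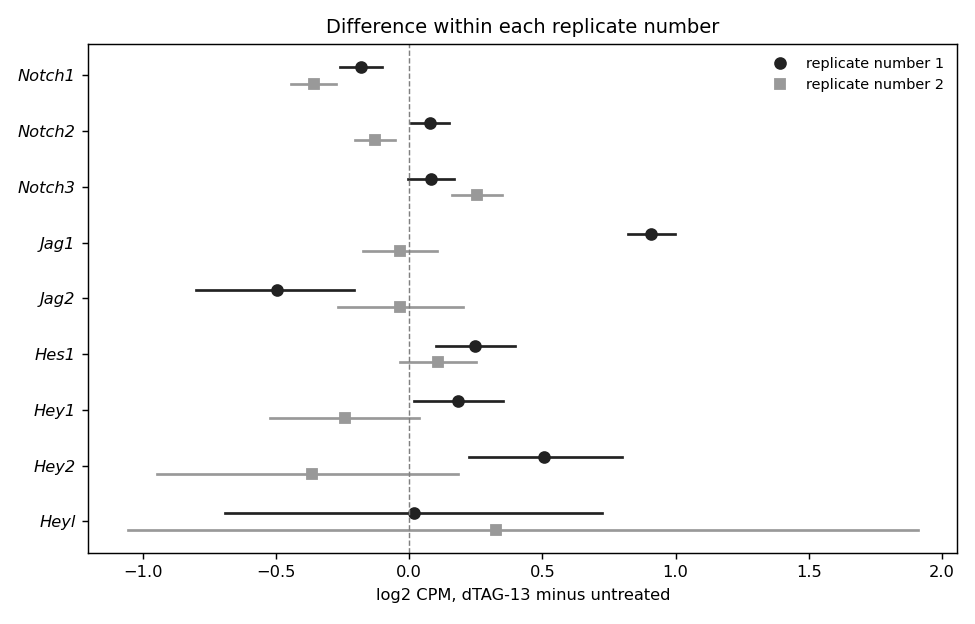
Difference in log2 CPM between the dTAG-13 and the untreated library of the same replicate number (horizontal axis) for each gene, with circles and black lines for number 1 and squares and grey lines for number 2, where lines are 95% exact binomial intervals for counting error. Jag1 lies at 0.91 in number 1 and at -0.03 in number 2, and Hey1 and Hey2 lie on opposite sides of 0 in the 2 numbers.

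Hes1 (chromosome 16, 30064384 to 30067796) encodes a basic helix-loop-helix repressor and is a direct NOTCH target in many tissues. It had 65.4 and 73.3 CPM with dTAG-13, against 55.1 and 68.0 CPM untreated. The groups overlapped, and replicate 2 was the higher library in each. The means were 69.4 ± 5.55 CPM with dTAG-13 and 61.5 ± 9.13 CPM untreated (SD, n = 2 each). Its log2 fold change was 0.17 ± 0.16, which did not pass. Its difference was 0.25 within number 1 and 0.11 within number 2, and both stayed above 0 with plain totals (0.13 and 0.18).

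The 3 HEY genes encode related repressors that act in somites, arteries and the heart. Hey1 (chromosome 3, 8663359 to 8667256) had 50.4 and 17.1 CPM with dTAG-13, against 44.4 and 20.2 CPM untreated. Replicate 1 was 2.95-fold above replicate 2 with dTAG-13 and 2.20-fold above it in the untreated group. The dTAG-13 value lay above untreated in number 1 and below it in number 2, and the log2 fold change over all libraries was 0.06 ± 0.71.

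Hey2 (chromosome 10, 30832359 to 30842801), known from arterial endothelium and ventricular muscle, had 19.5 and 4.25 CPM with dTAG-13, against 13.7 and 5.52 CPM untreated. Its spread between replicate numbers was 4.60-fold with dTAG-13 and 2.49-fold untreated. The difference between dTAG-13 and untreated was 0.51 within number 1 (0.22 to 0.80) and -0.37 within number 2 (-0.94 to 0.18), and the fitted log2 fold change was 0.30 ± 0.89.

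Heyl (chromosome 4, 123233556 to 123249875), known from vascular smooth muscle and somites, was the rarest member, with 34 and 11 counts with dTAG-13, against 38 and 8 counts untreated. In CPM these were 2.90 and 0.934 with dTAG-13, against 2.86 and 0.712 untreated. Replicate 1 was 3.11-fold above replicate 2 with dTAG-13 and 4.02-fold above it untreated. The fitted log2 fold change was 0.08 ± 0.83, and at these counts the interval of the difference within number 2 ran from -1.06 to 1.91.

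Promoter sequence could be examined for 6 of the 9 members, Notch1, Notch2, Notch3, Jag1, Jag2 and Hey2, in RefSeq windows of GRCm38.p6 that span 250 bases before to 50 after the start of the gene. Hey2 is shown because it moved with Hey1 and Heyl between libraries and was the single promoter of the 6 to hold the core RBPJ motif GTGGGAA, which 6.38% of the 32851 promoter windows hold on either strand. The E-box CACCTG, which ZEB proteins are known to bind, was likewise found in the Hey2 window and in none of the other 5, where 20.2% of all windows hold it. The 250 bases before the Hey2 start (chr10:30842784-30843033, minus strand) are given 5′ to 3′, with both motifs in capitals. The first capital run, at position -223, is the E-box read on the opposite strand, and the next, at -207, is the RBPJ motif read on the opposite strand. The capitals at the end are the start of another RBPJ match, shown whole in the line after it. The matches do not overlap.
Hey2 upstream: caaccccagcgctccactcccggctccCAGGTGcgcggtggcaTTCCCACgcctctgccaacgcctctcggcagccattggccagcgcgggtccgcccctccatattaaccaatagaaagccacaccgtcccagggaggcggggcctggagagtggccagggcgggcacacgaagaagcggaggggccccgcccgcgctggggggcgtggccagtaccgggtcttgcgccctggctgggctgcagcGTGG
Hey2 start site: gctgcagcGTGGGAAagaacctc
The start site line (chr10:30842773-30842795, minus strand) shows a match in the reading direction of the gene that begins at -4 and runs across the start, with the motif in capitals. These are matches of letters and not measured binding sites.

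Ordered by level per length, the repressor Hes1 was the most abundant member in both groups, at 34.0 ± 2.73 CPM per kb with dTAG-13 and 30.2 ± 4.48 CPM per kb untreated (SD, n = 2 each). With dTAG-13 it was followed by Jag1 (26.8), Notch2 (23.5), Notch3 (21.7), Notch1 (13.1), Hey1 (10.3), Jag2 (2.81), Hey2 (2.59) and Heyl (0.375 CPM per kb). In the untreated group the order was Hes1, Notch2 (23.8), Notch3 (19.4), Jag1 (17.3), Notch1 (15.7), Hey1 (9.89), Jag2 (3.26), Hey2 (2.09) and Heyl (0.350 CPM per kb). Neighbours whose libraries overlapped with dTAG-13 were Hes1 and Jag1, Jag1 and Notch2, Notch2 and Notch3, Notch1 and Hey1, and Jag2 and Hey2. Among untreated libraries they were Notch3 and Jag1, Jag1 and Notch1, and Jag2 and Hey2. The exon lengths are those of GENCODE M21, while the sources used here do not give the annotation behind the counts. Hes1 made up 61.3% and 85.0% of the summed level per length of Hes1 and the 3 HEY genes with dTAG-13, against 61.2% and 81.6% untreated, so the mix of repressors differed with the replicate number in both groups alike.

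**Figure D3:**
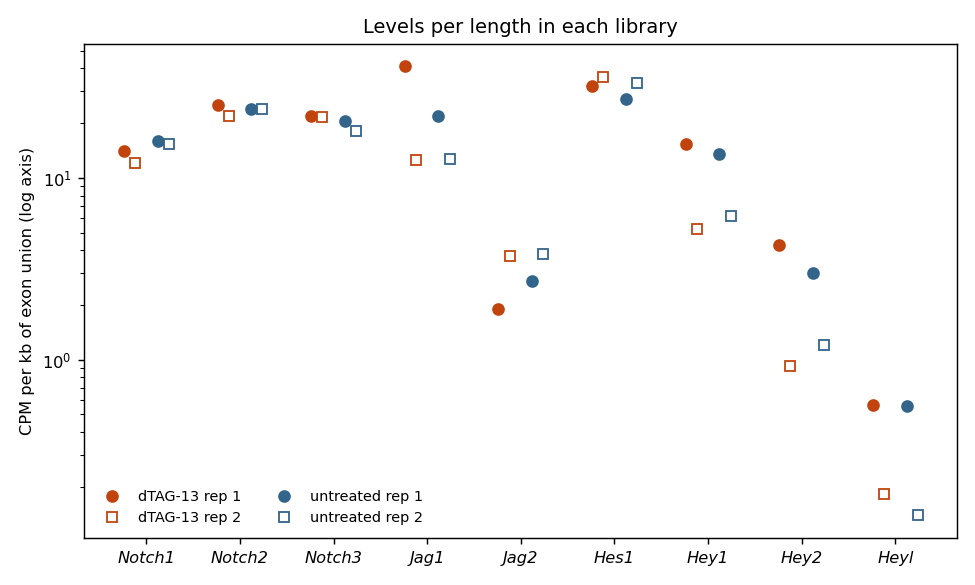
Level of each gene in CPM per kb of its exons (log axis) in the dTAG-13 libraries (red) and the untreated libraries (blue), with filled circles for replicate 1 and open squares for replicate 2. Hes1 has the highest mean and Heyl the lowest in both groups, and the open squares of Jag1, Hey1, Hey2 and Heyl lie below their circles.

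Of the 9 members 3 were at least 2-fold lower in replicate 2 than in replicate 1 of both groups, namely Hey1, Hey2 and Heyl. The share of all tested genes with such a difference was 2.78%, and 0 members were at least 2-fold higher in replicate 2 of both groups, where 1.24% of all tested genes were. In log2 CPM, replicate 2 minus replicate 1, Hey1 had -1.55 with dTAG-13 and -1.13 untreated, Hey2 had -2.16 and -1.29, and Heyl had -1.48 and -1.79. Jag1 had -1.71 with dTAG-13 and -0.77 untreated, so that replicate 1 was 3.28-fold above replicate 2 with dTAG-13 and 1.71-fold above it untreated. The receptors lay between -0.23 and 0.00 in both groups.

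Markers of endothelium, of cardiac mesoderm and in part of somites differed between the replicate numbers in the same direction. Of 14 endothelial markers 11 were at least 2-fold lower in replicate 2 of both groups, and their summed level was 272 and 108 CPM with dTAG-13, against 307 and 93.7 CPM untreated. None of the 14 was at 0 in every library, and Cdh5, the cadherin of endothelial cells, had 12.5 and 1.19 CPM with dTAG-13, against 16.6 and 2.58 CPM untreated. Pecam1, another endothelial marker, did not follow, with 23.2 and 25.3 CPM with dTAG-13, against 18.7 and 18.0 CPM untreated. Egfl7 and Sox18 were lower in replicate 2 of both groups, but less than 2-fold with dTAG-13. Of 9 cardiac and lateral mesoderm markers 6 had enough reads to be tested, and all 6 were at least 2-fold lower in replicate 2 of both groups. Their list summed to 109.6 and 22.9 CPM with dTAG-13, against 86.1 and 16.4 CPM untreated. The mural cell list, in which 3 of 8 genes were tested and 1 was 2-fold lower, summed to 61.1 and 22.8 CPM with dTAG-13, against 66.2 and 25.7 CPM untreated. Of 9 somite markers 4 were at least 2-fold lower in replicate 2 of both groups, where 2.78% of all tested genes were. The somite list, with 0 markers 2-fold higher in both, summed to 282 and 163 CPM with dTAG-13, against 406 and 264 CPM untreated. The part of these cell types in the levels of Jag1 and the HEY genes was not tested.

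**Figure D4:**
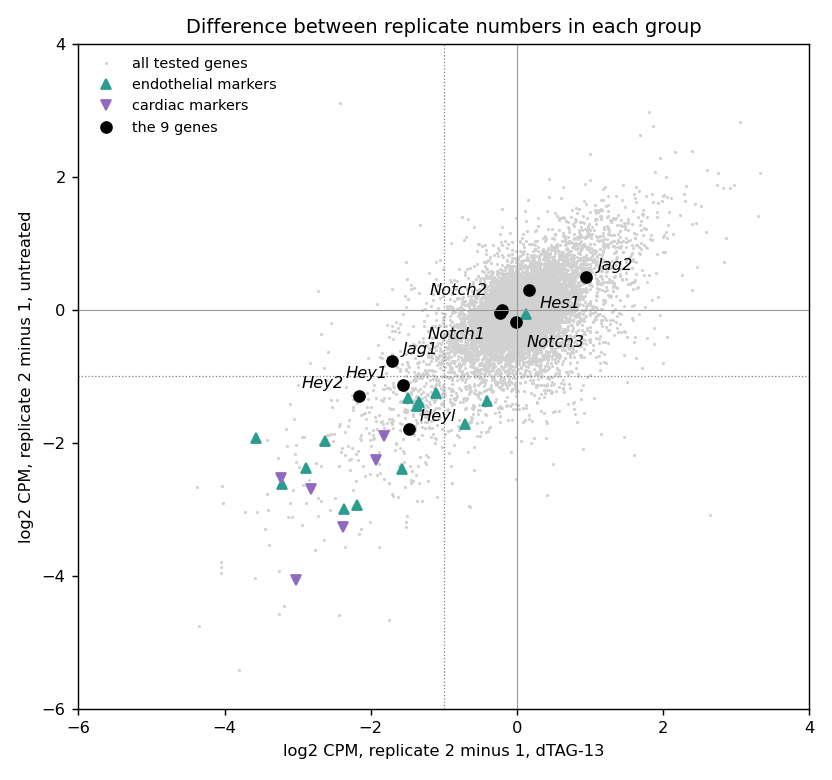
Log2 CPM of replicate 2 minus replicate 1 in the dTAG-13 group (horizontal axis) and in the untreated group (vertical axis) for all tested genes (grey), endothelial markers (triangles pointing up), cardiac markers (triangles pointing down) and the 9 genes (black, named), with dotted lines at a 2-fold decrease. Hey1, Hey2 and Heyl lie beyond both dotted lines among the markers, whereas the receptors lie near 0.

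For each member the gene of most similar pattern was sought among 122 other pathway genes and markers, as the smallest root mean square difference of centred log2 CPM over the 4 libraries. Hey1 was nearest to Foxc1, a forkhead gene of somites and vessels, at 0.04, with Foxc1 at 113 and 40.3 CPM with dTAG-13, against 104.6 and 48.5 CPM untreated. Hey2 was nearest to the helix-loop-helix gene Bhlhe40 (0.21), Heyl to the arterial ligand gene Dll4 (0.16) and Jag1 to the VEGF receptor gene Flt1 (0.27). Jag2 was nearest to the neural progenitor gene Sox2 (0.23). The receptors and Hes1 were nearest to genes of the pathway's general machinery, Notch1 to Rbpj (0.09), Notch2 to the histone demethylase gene Kdm5a (0.02), Notch3 to the pathway inhibitor Numb (0.03) and Hes1 to the histone deacetylase gene Hdac1 (0.09). With 4 libraries such likeness is a description. Other tested genes were not searched, so a steady member could only be matched to a steady gene of these lists. The kind of gene found therefore depends on how the lists were made up.

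Among 58 other genes of the pathway, 56 were tested. None passed an adjusted p of 0.05 in edgeR with the group as the only term, or in DESeq2. Calls of an edgeR fit that also holds the replicate number are given at the end. At an unadjusted p under 0.05 there was 1 higher, where 2.29% of all tested genes are, and 5 were lower, where 1.23% are. The 5 lower were Hes5, Hes7, Dll1, Lfng and Maml2, and the higher one was Furin. The median log2 fold change of the 56 was 0.01, beside 0.00 over all tested genes, and ranged from -1.95 to 1.33 between genes.

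Other targets and HES family genes held the largest differences. Hes5, a NOTCH target of neural progenitors, had 4.86 and 1.95 CPM with dTAG-13, against 15.7 and 10.7 CPM untreated, a log2 fold change of -1.95 ± 0.48 (edgeR adjusted p = 0.844). The groups did not overlap, and the difference within a number was -1.65 and -2.35. Hes7, the oscillating repressor of the segmentation clock, had 14.7 and 13.8 CPM with dTAG-13, against 24.1 and 22.2 CPM untreated. Its log2 fold change was -0.70 ± 0.20 (adjusted p = 0.948 in the same edgeR fit). Id4, an inhibitor of helix-loop-helix factors, had 18.5 and 5.69 CPM with dTAG-13, against 5.35 and 4.27 CPM untreated, a log2 fold change of 1.33 ± 0.59. Of the 8 tested genes of this group 6 were below untreated in both numbers, where 23.9% of all tested genes were.

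Of the 4 tested genes for other ligands and the receptor Notch4, 2 lay wholly below untreated, and so did 2 of 5 Fringe and glycosylation genes, where 11.9% of all tested genes do. Dll1, the Delta-like ligand of presomitic mesoderm and neural progenitors, had 89.7 and 60.3 CPM with dTAG-13, against 109.9 and 127 CPM untreated (log2 fold change -0.66 ± 0.21). Dll3, which is also expressed in presomitic mesoderm, had 22.5 and 18.9 CPM with dTAG-13, against 26.1 and 29.4 CPM untreated (-0.42 ± 0.19). Dll4 had 3.07 and 0.849 CPM with dTAG-13, against 3.62 and 0.712 CPM untreated, and so followed the replicate number as Heyl did. The glycosyltransferase gene Lfng, which modifies NOTCH receptors and cycles with the clock, had 10.2 and 12.8 CPM with dTAG-13, against 16.0 and 20.6 CPM untreated (-0.67 ± 0.25), and its relative Mfng had a log2 fold change of -0.87 ± 0.40. Poglut1, which adds glucose to the receptors, had -0.14 ± 0.16. None of these passed over all genes in that edgeR fit. Dlk1, a non-canonical ligand gene, had 0 counts in all libraries, which at a limit of 3 counts allows up to 0.256 and 0.255 CPM in the dTAG-13 libraries, against 0.226 and 0.267 CPM in the untreated ones.

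Genes for the cutting, uptake and nuclear action of the receptors had median log2 fold changes of 0.06, 0.10 and 0.00. Of 10 proteolysis genes Furin, a protease that cleaves the receptor precursor, had 63.0 and 76.8 CPM with dTAG-13, against 44.8 and 51.3 CPM untreated (log2 fold change 0.54 ± 0.16). The γ-secretase genes Psen2 and Psenen had 0.40 ± 0.45 and 0.24 ± 0.33. Among 13 endocytosis and ubiquitin genes the smallest p values belonged to the ubiquitin ligase genes Dtx3l (0.43 ± 0.21), Neurl1b (0.65 ± 0.35) and Dtx4 (-0.98 ± 0.57), and 0 had an unadjusted p under 0.05. Of 16 nuclear genes Maml2, a coactivator that binds the NOTCH and RBPJ complex, had 22.4 and 14.8 CPM with dTAG-13, against 36.3 and 24.9 CPM untreated (-0.72 ± 0.28). The acetyltransferase gene Ep300 and the corepressor gene Tle4 had 0.15 ± 0.14 and 0.14 ± 0.13. Rbpj itself had 106 and 86.4 CPM with dTAG-13, against 104 and 101 CPM untreated.

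**Figure D5:**
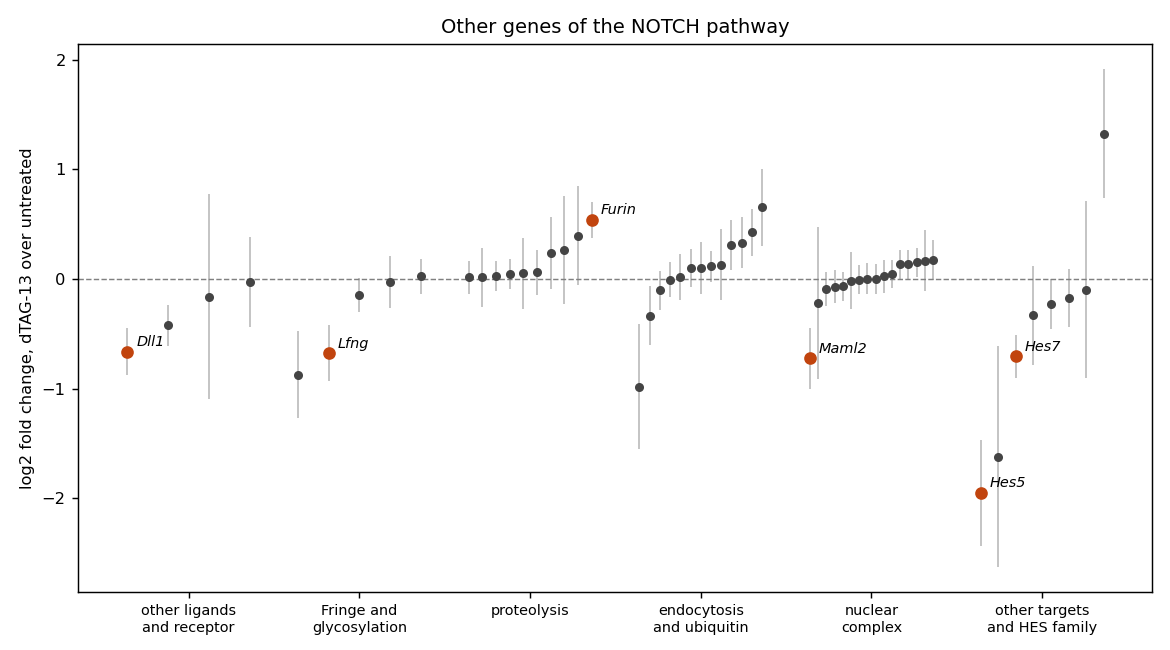
Log2 fold change of dTAG-13 over untreated (vertical axis, bars are standard errors from edgeR) for the 56 other NOTCH pathway genes, grouped by role, with genes at an unadjusted p under 0.05 in red and named. Hes5, Hes7, Dll1, Lfng and Maml2 lie below 0 and Furin above it, and none passed after adjustment in this fit.

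Cell type markers also differed between the groups. Of 15 tested neural progenitor markers 13 were below untreated in both numbers, where 23.9% of all tested genes were, and the list summed to 246 and 291 CPM with dTAG-13, against 366 and 539.9 CPM untreated. Its smallest p values belonged to the growth factor gene Ptn, the POU factor gene Pou3f2 and the homeobox gene Irx3, with log2 fold changes of -0.85, -1.99 and -1.02. Of 9 somite markers 8 were below untreated in both numbers, beside the same 23.9%, with sums of 282 and 163 CPM with dTAG-13, against 406 and 264 CPM untreated. Of 7 tested presomitic mesoderm markers 4 were lower in both numbers, beside the same 23.9%, and 2 higher. The lower ones were Tbx6, Ripply2, Mesp2 and Pcdh8, with log2 fold changes of -0.90, -3.45, -1.11 and -1.07. Ripply2 had 1 and 2 counts with dTAG-13, against 22 and 15 counts untreated, so the size of its change is uncertain. The higher ones were Msgn1 (0.21) and Dkk1 (0.61). Their list summed to 69.2 and 61.0 CPM with dTAG-13, against 83.2 and 60.9 CPM untreated. The largest part of each sum was Dkk1, with 42.3 and 36.8 CPM with dTAG-13, against 32.4 and 19.5 CPM untreated. Neuron markers summed to 73.4 and 89.2 CPM with dTAG-13, against 70.2 and 86.1 CPM untreated, but single genes differed in direction. Of the 8, 3 were lower and 3 higher in both numbers. Elavl3, Elavl4 and Onecut2 lay wholly below untreated (log2 fold changes -0.62, -0.75 and -0.79), where 11.9% of all tested genes do. The higher ones were Stmn2 (0.26), Map2 (0.10) and Isl1 (0.80), whose groups overlapped. All 12 epithelial markers were above untreated in both numbers, where 27.7% of all tested genes were, and summed to 1161 and 2199 CPM with dTAG-13, against 639.6 and 899.8 CPM untreated. None of these markers passed an adjusted p of 0.05 in edgeR with the group as the only term. Their part in the levels of Hes5, Hes7, Dll1 and Lfng was not tested.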

How the data were processed

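The deposited values are raw counts per gene symbol in whole numbers, 1 table per library, with no normalization by the authors. HTSeq summary lines at the end of each table entered neither library sizes nor tests. Reads counted outside genes were 25.3% and 29.2% of those listed with dTAG-13, against 35.7% and 24.1% untreated. The highest share was thus in untreated replicate 1, the reference of every difference within number 1. Per the submitters' processing notes, which give no roles, the tools were HTSeq 0.12.4, STAR 2.7.6a, DESeq2 1.34.0 and fastp 0.20.1, with genome builds GRCm38.p6 and mm10. The sources used here do not give the counting annotation or strand setting.

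Samples were grouped by title. The test was edgeR 4.0.16 in R 4.3.3: filterByExpr (minimum count 10, minimum total 15), TMM factors, estimateDisp, robust glmQLFit and a two-sided glmQLFTest with the group as the only term, Benjamini-Hochberg adjustment over 13602 genes and a threshold of 0.05. The fit left 2 residual degrees of freedom, and the common biological coefficient of variation was 21.7%. CPM uses TMM library sizes, differences in log2 CPM add a prior count of 2, and a standard error is the absolute log2 fold change over the square root of F. The script was tested on simulated data, where recovery of changed genes was required only at a spread below that of these libraries. That test does not show how many real changes would be found here. Chi-square values per degree of freedom of 30.9 (dTAG-13 pair) and 36.3 (untreated pair) show that replicates were not the same library deposited under both names.

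The members, the pathway list and the 8 marker lists were chosen with earlier results of these data known. All members were named, and of each pathway role the 3 genes of smallest p whose log2 CPM averaged 0 or more, besides any with an unadjusted p under 0.05. Rbpj, Hes3, Dlk1, Cdh5 and Sox18 fall outside that rule and were chosen once their values were known. So were the presomitic mesoderm and neuron genes named besides the 3 of smallest p with such an average, among them Ripply2, whose log2 CPM averaged -0.012. The rule also asked for 3 genes of each marker list. These are named for neural progenitors, presomitic mesoderm and neurons, while the other lists are given as sums with few genes named. Alternatives were RLE and upper quartile factors, DESeq2 1.42.0, no filter, a minimum of 50 counts in 2 libraries, the replicate number as a block, leaving out each library and, added after seeing the data, leaving out mitochondrial and the 50 highest genes.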

Additional observations from a re-analysis of the deposited data

How the results depend on the processing

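The count of members past the threshold was 0 in each direction under every alternative run. Over all genes edgeR with the group as the only term called 0, while DESeq2 called 26 higher and 13 lower. Same-numbered libraries deviated together (correlation of replicate 2 minus replicate 1 between the groups, across genes, 0.63), but with 2 pairs and no label on shared cultures the pairing is a hint from the data. With the replicate block, edgeR called 395 genes higher and 241 lower, and among other pathway genes 2 higher (Furin and Id4) and 7 lower (Hes5, Hes3, Hes7, Dll1, Lfng, Maml2 and Dtx4). No member passed with the block; Jag1 came nearest (log2 fold change 0.45, adjusted p = 0.0514), and Hey1 turned to -0.0063.

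The median log2 fold change of the members, 0.08 with all libraries, ran from -0.39 without dTAG-13 replicate 1 to 0.25 without untreated replicate 1, and was -0.02 without untreated replicate 2. Leaving out 1 library at a time gave ranges of -0.47 to 1.22 for Jag1, -0.79 to 0.19 for Jag2, -0.92 to 0.73 for Hey1, -1.18 to 1.09 for Hey2, -0.95 to 1.40 for Heyl and -0.13 to 0.0577 for Notch2. Each such fit has 1 group with 1 replicate number only, so differences between the numbers enter these values. The directions of these genes changed with the library left out. Notch1 (-0.39 to -0.18), Notch3 (0.08 to 0.25) and Hes1 (0.01 to 0.33) kept theirs. Without dTAG-13 replicate 1, Jag2 was 0.19, Hey1 -0.92, Hey2 -1.18 and Heyl -0.95. Without untreated replicate 2, Jag2 was 0.06, Hey1 -0.39, Hey2 -0.20 and Heyl -0.58. With plain totals, differences within number 1 were -0.30 for Notch1, -0.0451 for Notch2, -0.0415 for Notch3 and 0.78 for Jag1, and that of Notch2 within number 2 was -0.0502. Heyl within number 1 (-0.10) and Jag1 and Jag2 within number 2 (0.04 each) also changed sign with plain totals. The cause of these changes was not tested beyond the samples or scale that each alternative changes. Heyl, at 8 to 38 counts, was not tested with the filter of 50 counts.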
